A study of Mus musculus with 15 samples.

Results

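Nlrp6, Nlrp3, Nlrc4, Aim2, Pycard, Casp1, Casp4, Gsdmd, Il18 and Il18bp encode the sensors, adaptor, caspases, pore protein and cytokine of the inflammasome, together with the cytokine's soluble antagonist. They were taken by symbol from the table of gene expression in the mouse cecum, and all 10 had a row among 45808. Of these, 9 had an expression value of at least 0.5 FPKM (fragments per kilobase of exon, scaled to the reads sequenced) in at least 7 mice and were tested. Nlrp3 lay below this limit. The mice were wild-type male C57BL/6 mice labelled as 20 weeks old, older than the starting age and length of treatment in the study's methods add up to, and no transgene or deletion was present in either group. For 30 days, 7 AIMD mice (antibiotic-induced microbiome depletion) received ampicillin, vancomycin, neomycin, metronidazole and the antifungal amphotericin B by oral gavage 2 times a day, while 8 vehicle-treated mice received water. Whole ceca were emptied, frozen and sequenced as poly-A RNA, 1 library per mouse, so each value pools epithelium, muscle and immune cells. The comparison asks how the expression of these genes differed once the microbiome had been depleted.

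An inflammasome forms when a cytosolic sensor detects a microbial product or cell damage and recruits caspase-1, in many cases through the adaptor ASC, the product of Pycard. Caspase-1 cleaves the precursors of IL-18 and IL-1β into active cytokines and cleaves gasdermin D, whose fragment forms pores in the plasma membrane. The gut epithelium holds a standing store of IL-18 precursor, and IL-18 binding protein captures the secreted cytokine. Transcript levels measure none of these cleavage steps.

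AIMD mice had more mRNA for the sensors Nlrc4 and Aim2 and for the caspase of the noncanonical pathway. They had less for Il18 and for the sensor Nlrp6. Of the 9 tested genes, Casp4, Nlrc4 and Aim2 were higher and Il18 and Nlrp6 were lower in AIMD mice, at an adjusted p under 0.05 in limma's moderated test. The other 4, Pycard, Casp1, Gsdmd and Il18bp, did not pass. Over all 11971 genes tested, 36% passed, 19.4% as higher and 16.6% as lower, so the members' count of 5 of 9 stood in a comparison in which many genes differed. The values of Casp4, Nlrc4 and Aim2 in AIMD mice lay above those of every vehicle-treated mouse. Such a separation upward was found for 5.26% of all tested genes, downward for 3.3%, and in either direction for 8.56%. In whole tissue, fewer cells of a type and less RNA per cell cannot be told apart.

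The libraries held between 4372415 and 18108581 reads on genes, and AIMD libraries tended to be deeper. Their median was 11244636 reads, against 7855368 in vehicle-treated mice. The vehicle-treated mouse 8 had the fewest. This mouse stood apart. Its smooth muscle markers summed to 3030 FPKM, against 520 to 1380 in the other vehicle-treated mice and 215 to 813 in AIMD mice, and its enteric neuron and glia markers summed to 81.5 FPKM against at most 25.4. Its small intestine markers were also the highest, at 1768 FPKM against at most 1091. Epithelial markers, at 5562 to 9881 FPKM, and markers of cecum and colon, at 18807 to 30506 FPKM, were high in all 15 mice. The lowest cecum and colon sum was that of vehicle mouse 8. Its mean log2 level of these markers, 8.05, lay within the 7.51 to 8.29 of the other mice. Of 9 epithelial markers 3 were higher and 1 lower in AIMD mice, and of 6 markers of cecum and colon 1 was higher and 2 were lower. These 6 include Ang4 and Muc2, which are also reported below. Of 8 tested macrophage and dendritic cell markers 3 were higher in AIMD mice, 5 did not pass and none was lower, where 19.4% of all genes were called higher. Their sum overlapped between groups and was 65.5 to 222 FPKM in AIMD mice and 46.4 to 72.9 FPKM in vehicle-treated mice. Of 10 lymphocyte markers 2 were lower and none higher, as were 2 of 8 smooth muscle markers and 4 of 5 tested markers of enteric neurons and glia. No neutrophil marker passed the limit for testing. No list had a marker at 0 in every mouse. The part of these cell types in the results below was not tested. On a score of core clock genes, AIMD 1 to 3 and vehicle 1 to 4 formed a high cluster, at 1.82 to 2.47, and AIMD 4 to 7 and vehicle 5 to 8 a low one, at -0.78 to -0.06, both in log2 units. Both clusters held both groups, and the values within each are given with the results.

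**Figure D1:**
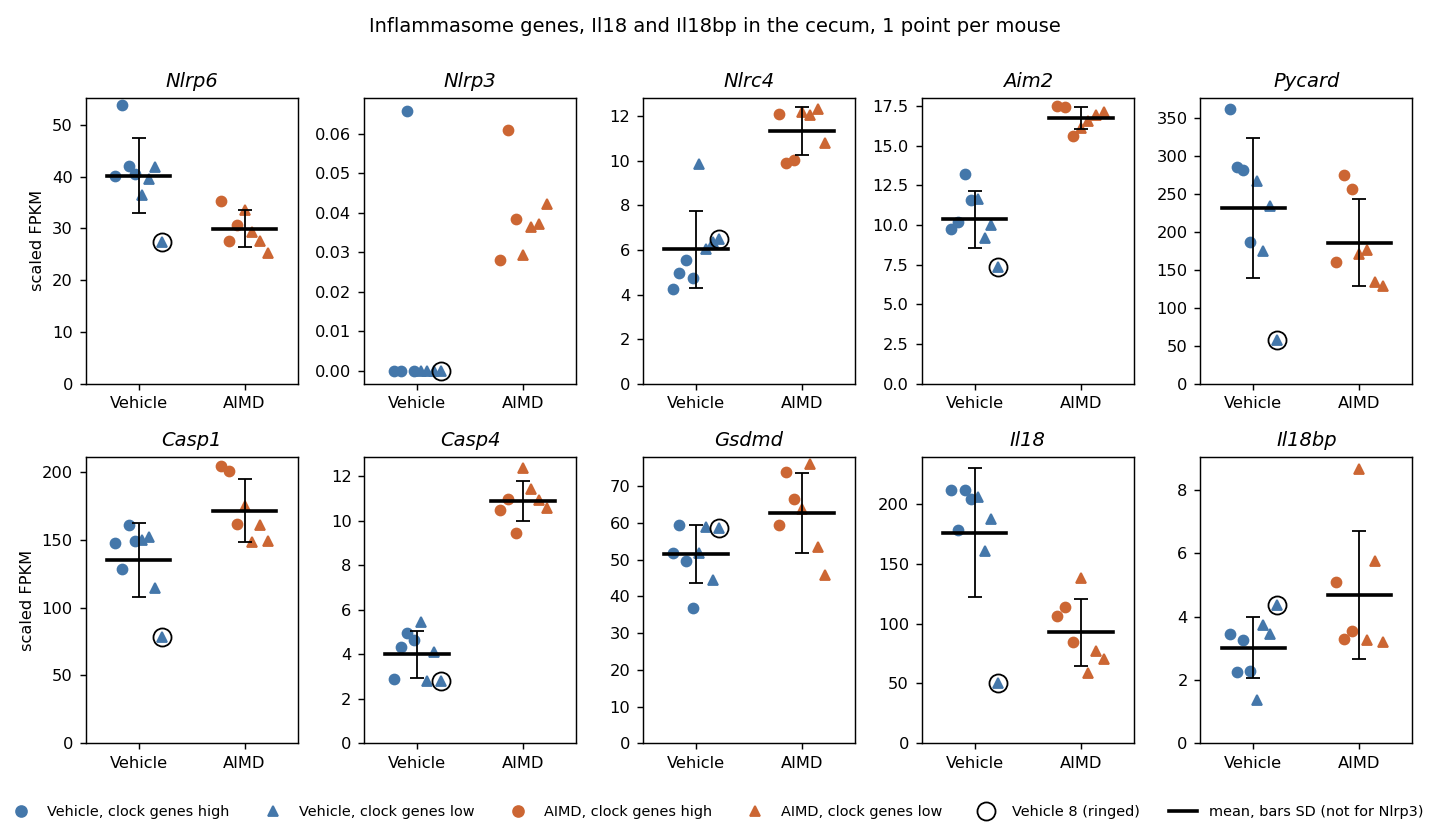
FPKM (y axis, divided by the size factor of the library) of the 10 genes in each vehicle-treated mouse (blue) and AIMD mouse (orange). Bars are the mean and SD and are not drawn for Nlrp3. Shapes give the clock-gene cluster and the ring marks vehicle mouse 8. Nlrc4, Aim2 and Casp4 show no overlap between groups, and the ringed mouse is the lowest of its group for Nlrp6, Aim2, Pycard, Casp1 and Il18.

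The sequences just upstream of 3 of these genes are shown because they belong to the tested member with the largest difference, Casp4, and to both members that were lower. They are the 250 bases before the RefSeq start site on GRCm38.p6, all on the plus strand: Nlrp6 at chr7:140920652-140920901, Casp4 at chr9:5308599-5308848 and Il18 at chr9:50554450-50554699. Capitals mark matches to any of 4 motifs, searched on both strands of the window from 250 bases before to 50 bases after the start.
Nlrp6: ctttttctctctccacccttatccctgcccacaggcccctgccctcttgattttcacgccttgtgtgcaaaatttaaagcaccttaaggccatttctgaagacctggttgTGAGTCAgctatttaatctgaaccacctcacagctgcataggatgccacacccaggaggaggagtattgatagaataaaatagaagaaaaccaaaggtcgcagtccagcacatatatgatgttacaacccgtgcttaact
Casp4: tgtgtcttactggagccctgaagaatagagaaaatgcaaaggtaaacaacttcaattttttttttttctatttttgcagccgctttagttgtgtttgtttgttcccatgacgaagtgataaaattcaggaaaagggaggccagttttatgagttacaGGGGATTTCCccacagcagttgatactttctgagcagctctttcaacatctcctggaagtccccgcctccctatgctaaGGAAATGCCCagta
Il18: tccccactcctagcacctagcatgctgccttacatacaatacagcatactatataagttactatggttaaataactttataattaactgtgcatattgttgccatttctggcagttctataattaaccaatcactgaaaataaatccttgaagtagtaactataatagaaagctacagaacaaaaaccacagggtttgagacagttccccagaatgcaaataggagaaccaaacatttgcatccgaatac
The motifs were a kappaB motif (GGG, any 2 bases, then TTTCC), an AP-1 motif (TGANTCA, where N is any base), the gamma-activated site (TTC, any 3 bases, then GAA) and an interferon-stimulated response element core (GAAA, any 2 bases, then GAAA). They were chosen after these sequences had been seen. Casp4 held 2 kappaB matches, GGGGATTTCC beginning at position -93 and GGAAATGCCC, a match on the other strand, beginning at position -14 from the start site. A second Casp4 start site in RefSeq lies a few bases downstream, and its window holds the same matches. Among 32851 promoters of 300 bases, a set that left out 1 chromosome, 1.63% held a kappaB match. Nlrp6 held 1 AP-1 match, TGAGTCA at position -140, a motif present in 7.81% of promoters. Il18 and the other members with an entry, which are Nlrp3, Nlrc4, Aim2, Pycard, Casp1 and Il18bp, held no match. The gamma-activated site occurred in 8.30% and the interferon element in 3.44% of the promoters searched. A match describes letters in a window, and no binding was measured here.

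Nlrp6 encodes a sensor that is abundant in the intestinal epithelium and has been tied to IL-18 production and mucus secretion. It was the most highly expressed of the 4 sensors in both groups. In AIMD mice its expression was lowest at 25.2 FPKM, had a median of 29.2 FPKM and was highest at 35.3 FPKM. In vehicle-treated mice it ran from 27.3 FPKM through a median of 40.3 FPKM to 53.8 FPKM. The groups overlapped through vehicle mouse 8, while the other 7 vehicle-treated mice all lay above the highest AIMD mouse. Nlrp6 was lower in AIMD mice by a log2 difference of -0.41 (SE 0.127; limma adjusted p = 0.0185), with means of 29.9 ± 3.57 FPKM (SD, n = 7) and 40.2 ± 7.29 FPKM (SD, n = 8). The two-sided exact permutation test of this gene alone gave an unadjusted p of 0.00544. The difference was -0.49 within the high clock cluster (exact p = 0.0286, the smallest it allows) and -0.31 within the low one (exact p = 0.114). With the balance of epithelial and smooth muscle markers as a covariate it was -0.65 (limma adjusted p = 0.00343). This balance ran from 3.66 to 5.54 in AIMD mice and from 1.65 to 4.07 in vehicle-treated mice, in log2 units. Because it differed between groups, fits with this covariate cannot fully separate it from treatment, here and below.

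Nlrp3 encodes the sensor of ion flux and membrane damage, best known from macrophages. It was close to the limit of detection. Each AIMD mouse had 1 to 3 reads on it, 15 in all, at 0.0279 to 0.0610 FPKM. Among vehicle-treated mice only mouse 3 had reads, 2 of them, at 0.0659 FPKM, and the other 7 were at 0, a count that still allows up to 3 reads or 0.0541 to 0.167 FPKM depending on the depth of the library. Per read sequenced, AIMD mice had 5.12 times the reads of vehicle-treated mice, with a 95% counting interval of 1.19 to 46.2 that leaves out the spread between mice. The exact permutation test of its log2 value gave an unadjusted p of 0.00793. Within the high clock cluster the log2 difference was 0.073 (exact p = 0.229) and within the low one 0.10 (exact p = 0.0286, the smallest it allows). Without the limit on low values, limma's adjusted p was 0.0542.

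Nlrc4 encodes the receptor that joins with NAIP proteins carrying bacterial flagellin or secretion-system proteins. Expression in AIMD mice was between 9.89 and 12.3 FPKM with a median of 12.1 FPKM. Expression in vehicle-treated mice was between 4.25 and 9.84 FPKM with a median of 5.78 FPKM. The highest vehicle-treated mouse, mouse 5, came just below the lowest AIMD mouse, while the next vehicle-treated mouse was at 6.48 FPKM. Means of 11.3 ± 1.07 FPKM (SD, n = 7) with AIMD and 6.02 ± 1.73 FPKM (SD, n = 8) with vehicle gave a log2 difference of 0.89 (SE 0.141; limma adjusted p = 0.000172). The exact permutation test gave an unadjusted p of 0.000311. Within the high and low clock clusters the difference was 1.06 and 0.71, each at the smallest exact p of 0.0286.

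Aim2 encodes the sensor of double-stranded DNA in the cytosol. It varied least of the 10 genes among AIMD mice relative to its mean, from 15.6 to 17.5 FPKM with a median of 17.0 FPKM. Vehicle-treated mice spanned 7.37 to 13.2 FPKM with a median of 10.1 FPKM, and mouse 8 was the lowest. All 7 AIMD mice lay above all 8 vehicle-treated mice. The means were 16.8 ± 0.700 FPKM (SD, n = 7) and 10.4 ± 1.78 FPKM (SD, n = 8), with a log2 difference of 0.68 (SE 0.111; limma adjusted p = 0.00021). The exact permutation p was 0.000311, unadjusted, and within the high and low clock clusters the difference was 0.58 and 0.79, each at the smallest exact p of 0.0286.

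Pycard encodes the adaptor ASC, through which most of these sensors reach caspase-1, and it had the highest mean of the 10 genes in both groups. AIMD mice ranged from 129 to 275 FPKM with a median of 170 FPKM. Vehicle-treated mice ranged from 57.0 to 361 FPKM with a median of 250.4 FPKM. The lowest value in either group was that of vehicle mouse 8, while 3 vehicle-treated mice exceeded every AIMD mouse. The difference, -0.21 on the log2 scale with a 95% interval of -0.86 to 0.44, was within the spread between mice (limma adjusted p = 0.622). It was -0.27 (exact p = 0.371) and -0.069 (exact p = 0.971) within the high and low clock clusters. Without vehicle mouse 8 it was -0.48 (limma adjusted p = 0.0657), and with the epithelial and muscle marker balance as a covariate -0.80 (limma adjusted p = 0.0951).

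Casp1 encodes caspase-1, which matures IL-18. AIMD mice had 149 to 204 FPKM with a median of 161 FPKM, and vehicle-treated mice 78.1 to 161 FPKM with a median of 149 FPKM. The groups overlapped, with 4 AIMD mice above every vehicle-treated mouse and 4 vehicle-treated mice below every AIMD mouse. The log2 difference of 0.36 (SE 0.150) did not pass over all genes (limma adjusted p = 0.0674), and its exact permutation p was 0.0151, unadjusted. The call depended on scaling: Casp1 passed as higher when libraries were quantile normalized (0.48, adjusted p = 0.0107) or set to the same FPKM sum outside mitochondrial genes (0.44, adjusted p = 0.0240), and once the clock-gene score entered the model (0.39, adjusted p = 0.0260). Within the high and low clock clusters the difference was 0.36 (exact p = 0.0286, the smallest it allows) and 0.40 (exact p = 0.171). With the epithelial and muscle marker balance, which itself differed between groups, as a covariate it was 0.089 (limma adjusted p = 0.721).

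Casp4 encodes mouse caspase-11, which binds bacterial lipopolysaccharide in the cytosol and cleaves gasdermin D without a sensor of the other kind. It lies next to Casp1 on chromosome 9, where Casp1 spans 5298517 to 5307265 and Casp4 5308828 to 5336783 on the same strand of GRCm38. Its expression was 9.43 to 12.4 FPKM in AIMD mice, median 10.9 FPKM. In vehicle-treated mice it was 2.78 to 5.43 FPKM, median 4.21 FPKM. The groups were far apart, and vehicle mouse 8, at 2.80 FPKM, was close to the lowest of its group. The means of 10.9 ± 0.901 FPKM (SD, n = 7) and 3.99 ± 1.04 FPKM (SD, n = 8) differed 2.73-fold. This was the largest difference among the 9 tested genes, a log2 difference of 1.37 (SE 0.140; limma adjusted p = 2.80e-06). The exact permutation p of 0.000155 is the smallest that 7 against 8 mice allow. It was 1.22 and 1.51 in the high and low clock clusters, each at the smallest exact p of 0.0286, and each AIMD library had at least 386 reads on the gene.

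Gsdmd encodes gasdermin D, the pore protein that both caspases cleave. It ranged from 45.8 to 75.9 FPKM in AIMD mice, median 63.7 FPKM. It ranged from 36.8 to 59.5 FPKM in vehicle-treated mice, median 51.8 FPKM. Of the 7 AIMD mice, 4 lay above every vehicle-treated mouse, and the others overlapped. The log2 difference of 0.28, with a 95% interval of -0.0039 to 0.56, did not pass (limma adjusted p = 0.114). Within the high and low clock clusters it was 0.44 (exact p = 0.0857) and 0.14 (exact p = 0.457). It passed at 0.35 without AIMD mouse 7 (adjusted p = 0.0495), at 0.34 with quantile normalization (adjusted p = 0.0452) and at 0.35 with equal FPKM sums outside mitochondrial genes (adjusted p = 0.0400).

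**Figure D2:**
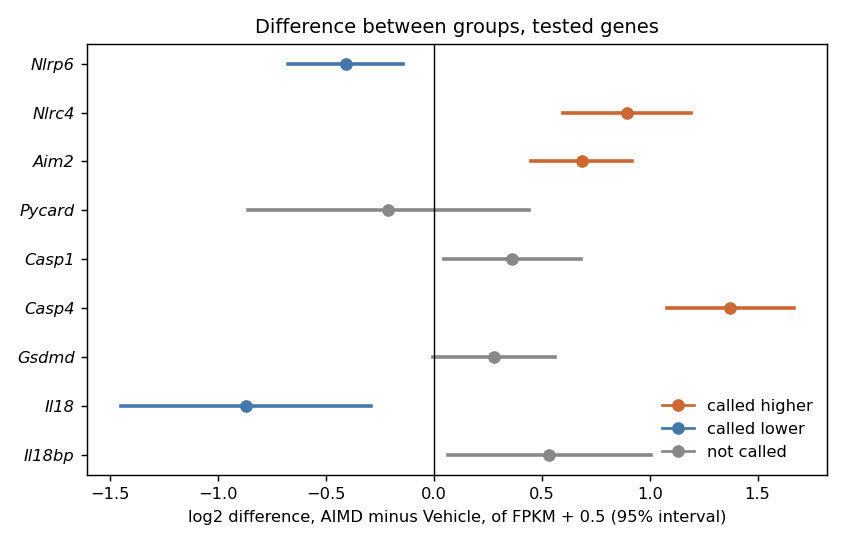
Log2 difference between AIMD and vehicle-treated mice (x axis, FPKM + 0.5) with its 95% interval for the 9 tested genes (y axis), coloured by call. Casp4, Nlrc4 and Aim2 lie to the right of 0, Il18 and Nlrp6 to the left, and Pycard has the widest interval.

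Il18 encodes the cytokine itself, held as a precursor. AIMD mice had 58.3 to 138 FPKM with a median of 84.3 FPKM. Vehicle-treated mice had 50.4 to 211 FPKM with a median of 196 FPKM. Vehicle mice 1 to 7 lay between 160 and 211 FPKM, above every AIMD mouse, and vehicle mouse 8 lay below every AIMD mouse. The means were 92.6 ± 28.0 FPKM (SD, n = 7) and 176 ± 53.9 FPKM (SD, n = 8), and Il18 was lower in AIMD mice by a log2 difference of -0.87 (SE 0.275; limma adjusted p = 0.0204; exact permutation p = 0.0162, unadjusted). Without vehicle mouse 8 the difference was -1.11 (SE 0.167; limma adjusted p = 0.000115), and without AIMD mouse 5 it was -0.77 (adjusted p = 0.0499). It was -0.99 within the high clock cluster (exact p = 0.0286, the smallest it allows) and -0.71 within the low one, which holds mouse 8 (exact p = 0.286). With the epithelial and muscle marker balance as a covariate it was -1.54 (limma adjusted p = 0.000632).

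**Figure D3:**
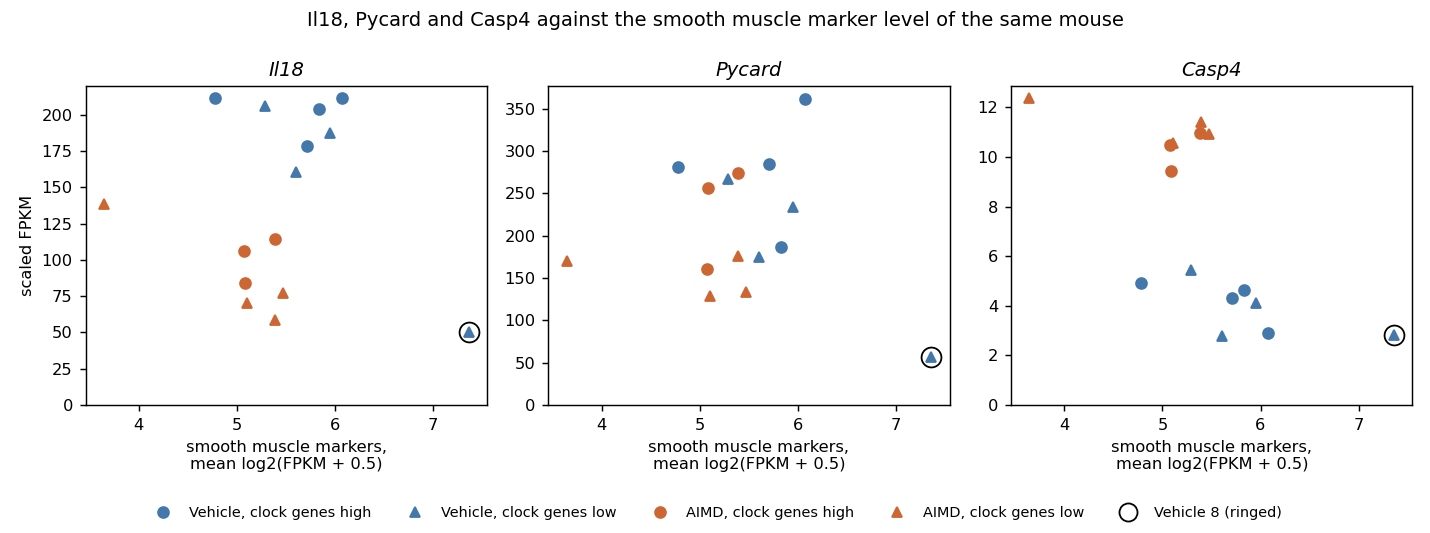
FPKM of Il18, Pycard and Casp4 (y axes) against the mean log2 level of 8 smooth muscle markers (x axis), 1 point per mouse, coloured by group and shaped by clock-gene cluster. Vehicle mouse 8 (ringed) lies alone on the right at 7.36, with the lowest Il18 and Pycard, while its Casp4 is within the range of its group.

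Il18bp encodes the secreted protein that captures IL-18. AIMD mice had 3.19 to 8.66 FPKM with a median of 3.54 FPKM. Vehicle-treated mice had 1.37 to 4.36 FPKM with a median of 3.35 FPKM, from as few as 10 reads in a library. Most mice overlapped, and 3 AIMD mice lay above every vehicle-treated mouse. The log2 difference of 0.53 (SE 0.224) did not pass (limma adjusted p = 0.0706), and without vehicle mouse 8 it was 0.61 and passed (adjusted p = 0.0409). Within the high and low clock clusters it was 0.43 (exact p = 0.143) and 0.60 (exact p = 0.286). On a log2 scale the ratio of Il18 to Il18bp averaged 4.19 ± 0.411 (SD, n = 7) with AIMD against 5.60 ± 1.00 (SD, n = 8) with vehicle. They differed by -1.41 (exact permutation p = 0.00653), and by -1.43 and -1.30 within the high and low clock clusters. In FPKM, Il18 exceeded Il18bp 20.8-fold at the median in AIMD mice and 63.1-fold in vehicle-treated mice. The ratio was lower in all 7 AIMD mice than in vehicle mice 1 to 7, and mouse 8 had the lowest ratio of all.

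**Figure D4:**
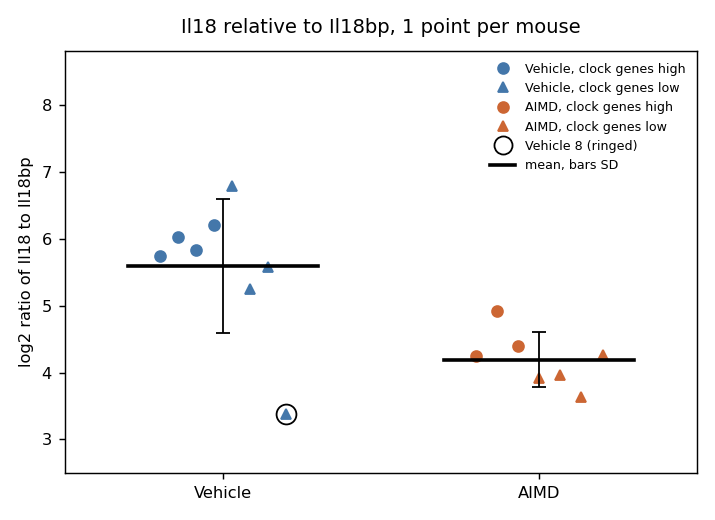
Log2 ratio of Il18 to Il18bp (y axis, FPKM + 0.5) in each vehicle-treated and AIMD mouse; bars are the mean and SD and the ring marks vehicle mouse 8. AIMD mice lie between 3.63 and 4.92, below 7 of the 8 vehicle-treated mice.

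Ranked by mean FPKM, which is per length of transcript, the order of the 10 genes differed between groups at 1 place. In vehicle-treated mice Il18 ranked above Casp1, and it was the higher of the pair in 7 of 8 mice, although the ranges overlapped. In AIMD mice Casp1 was higher than Il18 in 7 of 7 mice, with no overlap. In AIMD mice, neighbours in the order whose ranges overlapped were Pycard and Casp1, Il18 and Gsdmd, and Nlrc4 and Casp4. In vehicle-treated mice only Casp1 and Gsdmd, Nlrp6 and Aim2, and Il18bp and Nlrp3 were separated.

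Predicted-gene symbols (Gm and Rik) were left out of a ranking of the tested genes by likeness to Il18. Among the rest, the deviations of Il18 from its group mean were tracked most closely by Agpat5, Hspb11, Bet1, Arhgef38 and Ccdc43. Their Pearson's r was 0.92 to 0.93 over 15 mice. Without vehicle mouse 8 these fell to 0.68 to 0.79 over 14 mice. None of the 5 genes differed between groups at the threshold. Of the members, Casp1 tracked Il18 most closely, with r = 0.87 over 15 mice and 0.62 without mouse 8. With and without mouse 8, r was 0.80 and 0.35 for Pycard, 0.70 and 0.30 for Nlrp6, 0.70 and 0.23 for Aim2, and 0.50 and 0.25 for Casp4. It was -0.21 and -0.0042 for Gsdmd, -0.14 and -0.031 for Nlrc4, and it turned from -0.088 to 0.38 for Il18bp. All libraries share their depth and tissue make-up across genes, and these values are a description.

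Beyond the members, the sensors differed in both directions. Of 20 other sensors and sensor partners, 11 were tested, and 4 were higher and 2 lower in AIMD mice. Over all genes tested, 36% passed, 19.4% as higher and 16.6% as lower. The median log2 difference of these sensors was 0.29, against 0.0066 over all genes tested. Nlrp9b, a sensor of the gut epithelium, rose most, to 5.45 ± 0.891 FPKM (SD, n = 7) from 1.34 ± 0.819 FPKM (SD, n = 8), a log2 difference of 1.77 (limma adjusted p = 5.23e-06). Naip2, which binds the rod protein of secretion systems for Nlrc4, rose to 13.5 ± 1.74 FPKM from 6.54 ± 1.01 FPKM, a log2 difference of 0.99 (adjusted p = 1.14e-05). Naip1, which binds the needle protein, fell by 0.46 on the log2 scale (adjusted p = 0.0253), at 63.9 ± 18.3 FPKM against 85.7 ± 10.4 FPKM. Nod2, a receptor for bacterial cell wall fragments, fell by 0.75 (adjusted p = 0.00165), at 0.337 ± 0.131 FPKM against 0.929 ± 0.355 FPKM. Of the 50-base windows of Naip1 and Naip2, 31.5% and 19.1% occur in other genes, so reads could be lost or shared between them. That share was at most 1.09% in the members.

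Regulators of inflammasome activity also moved both ways, with 6 higher and 3 lower among 14 tested of 18. Over all genes tested, 19.4% were called higher and 16.6% lower. The median of this list of regulators was 0.18. Serpinb1a, an inhibitor of neutrophil proteases and inflammatory caspases, was among the most abundant. It rose to 709 ± 79.5 FPKM (SD, n = 7) from 266 ± 44.1 FPKM (SD, n = 8), a log2 difference of 1.42 (limma adjusted p = 6.36e-07) with no overlap. Irgb10, a GTPase that opens bacterial membranes and is listed in the table as Gm12250, rose by a log2 difference of 0.82 (adjusted p = 0.0316). Birc2 and Birc3, ubiquitin ligases of the inhibitor of apoptosis family, fell by 0.76 (adjusted p = 0.00121) and 0.54 (adjusted p = 0.0344).

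Cell death executors also differed both ways, with 6 higher and 3 lower among 14 tested of 18, and a median of 0.25. Over all genes tested, 36% passed, 19.4% as higher and 16.6% as lower. Ripk1, a kinase that decides between survival and death downstream of death receptors, rose to 2.79 ± 1.33 FPKM (SD, n = 7) from 0.452 ± 0.158 FPKM (SD, n = 8), a log2 difference of 1.70 (limma adjusted p = 1.69e-05). The groups did not overlap. Gsdmc4 and Gsdmc2, gasdermins of the large intestine, fell by 1.21 (adjusted p = 0.00277) and 1.20 (adjusted p = 0.000295), from vehicle means of 524 ± 185 FPKM and 225 ± 69.1 FPKM (SD, n = 8). Of their 50-base windows 39.0% and 51.3% occur in other genes. On average, both were more abundant than Gsdmd in both groups.

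In signalling by IL-18 and its relatives, 4 genes were higher and none lower among 13 tested of 18, with a median of 0.18. Over all genes tested 36% passed, 19.4% as higher, and the share called here was near that background. Il1rn, the antagonist of the IL-1 receptor, rose to 4.37 ± 1.25 FPKM (SD, n = 7) from 0.816 ± 0.464 FPKM (SD, n = 8), a log2 difference of 1.91 (limma adjusted p = 7.75e-06), with no overlap. Il1rl1, the receptor for IL-33, rose by 0.94 (adjusted p = 0.000732). Il18r1, the chain that binds IL-18, rose by 0.36 (adjusted p = 0.0384) from a low level, at 0.615 ± 0.157 FPKM against 0.370 ± 0.139 FPKM. Its partner Il18rap was below the limit for testing, at 0.254 ± 0.0887 FPKM in AIMD mice and 0.154 ± 0.0628 FPKM in vehicle-treated mice. Il1b, the other cytokine that caspase-1 matures, was at 0.714 ± 0.302 FPKM and 0.585 ± 0.267 FPKM and did not pass (log2 difference 0.17, adjusted p = 0.475). With the epithelial and muscle marker balance as a covariate, 2 genes of this list passed.

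Of 15 genes that respond to IL-18 or act beside it in the gut, 11 were tested. In AIMD mice 3 were higher and 1 was lower, which is near the 36% called over all genes, and the median was -0.17. Without AIMD mouse 4, 7 of these genes passed, and with the marker balance as a covariate 2 did. Ang4, an antimicrobial ribonuclease of Paneth and goblet cells, rose to 13.7 ± 6.42 FPKM (SD, n = 7) from 2.31 ± 0.931 FPKM (SD, n = 8), a log2 difference of 2.28 (limma adjusted p = 8.98e-06). Il22ra1, the epithelial receptor chain for IL-22, rose by 1.61 (adjusted p = 0.000151). Muc2, the main gel-forming mucin, fell by 0.77 (adjusted p = 0.0190), at 36.3 ± 5.44 FPKM against 68.2 ± 34.7 FPKM. Il22ra2, the soluble IL-22 antagonist, was at 6.09 ± 3.45 FPKM and 3.88 ± 1.40 FPKM (log2 difference 0.53, adjusted p = 0.174). Il22 and Ifng, the cytokines that act downstream of IL-18 in lymphocytes, were below the limit for testing, at no more than 0.346 FPKM and 0.221 FPKM in any mouse.

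**Figure D5:**
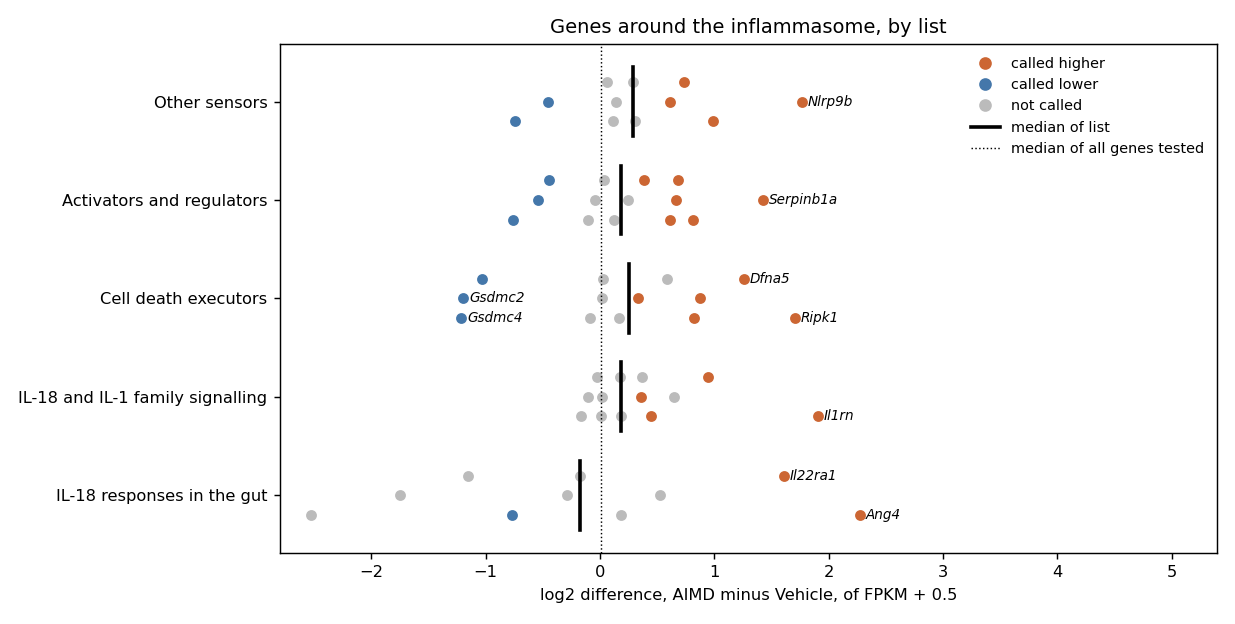
Log2 difference between AIMD and vehicle-treated mice (x axis, FPKM + 0.5) for the tested genes reported from the 5 lists (y axis), coloured by call, with the median of each list as a bar and that of all genes tested as a dotted line. Every list holds genes on both sides of 0, and Ang4 at 2.28 lies farthest to the right.

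None of the members' differences was found to depend on the clock-gene score. In limma's test of the interaction between treatment and this score, 0 of 11971 genes passed, with 388 at an unadjusted p under 0.05. None of the 9 members was among them, and their lowest unadjusted p in this limma fit was 0.208.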

How the data were processed

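Ceca of 15 mice were measured by stranded poly-A RNA sequencing with 50-base single reads. Per the labels and the methods, the authors used STAR (GRCm38) for alignment and featureCounts with GENCODE genes for counting, and the deposited values are FPKM; versions, the use of strand in counting and the step to FPKM were not given in the sources used here. The authors' model in DESeq2 included the time of sacrifice, which the labels do not give. A published table of the authors' fold changes and p-values was not used.

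Rows with a repeated symbol (4) were left out. Each library's FPKM were divided by a size factor from the median of gene ratios, all 1.01, so scaled values are about 1% below the deposited ones. log2(FPKM + 0.5) was tested with limma 3.58.1 (lmFit, eBayes with trend) in R 4.3.3 over 11971 genes with at least 0.5 FPKM in at least 7 mice, two-sided, with Benjamini-Hochberg adjustment over all of them and a threshold of 0.05. Fold changes are on this scale, which understates the change of low genes. Exact permutation tests enumerated all 6435 splits of the mice, and p-values measure the spread between mice of 1 cohort. The 95% counting interval and limits on a count of 0 cover counting error only. The clock-gene score was the mean log2 level of Arntl, Npas2 and Clock minus that of Nr1d1, Nr1d2, Dbp, Tef, Per2, Per3 and Ciart, and the marker balance that of epithelial minus smooth muscle markers.

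FPKM steps gave whole reads (tolerance 0.01 read) for all 24279 genes above 0, 67.6% of them with the exon length of the GENCODE annotation used here and the rest with the shortest other length that gave whole reads. Nlrc4, Pycard, Gsdmd, Il18 and Il18bp were among the latter, so their read numbers are the least the values allow. Exons of Pycard and Il18bp overlap antisense genes by 485 and 80 bases. No column lacked a sample. On simulated data, 178 of 200 genes changed 2-fold were called in the right direction among 12126 tested, and 2.73% of calls were unchanged genes. Every simulated gene had the same dispersion and no mouse was set apart, so these shares may not hold for the real data. In a separate simulation of the read recovery, 99.975% of 4000 genes came back with every read.

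The genes and lists were chosen with earlier results of these data known. From each list the text names up to 2 called genes per direction, by size of change, plus Il1b, Il18r1, Il18rap, Il22, Il22ra2 and Ifng. For Il18 it names the 5 genes of highest correlation, with predicted-gene symbols (Gm and Rik) left out. Of the called genes in the lists, 2 are counted but not reported by name here. Promoters were RefSeq's for GRCm38.p6; Gsdmd was not matched. Alternatives were other scalings, pseudocounts of 0.1 and 1, other filters, limma voom on recovered reads, the replicate number as a block, 3 covariate fits, and leaving out each mouse.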

Additional observations from a re-analysis of the deposited data

Results flagged for a closer look

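Among 20 sets of values, 10 genes in 2 groups, 3 held a mouse far from the rest by Dixon's criterion, which chance alone meets in about 1 in 20 sets. Il18 in vehicle mouse 8 was 50.4 FPKM, and the nearest vehicle-treated mouse was at 160 FPKM. Nlrc4 in vehicle mouse 5 was 9.84 FPKM, with the nearest at 6.48 FPKM. Nlrp3 in vehicle mouse 3 was 0.0659 FPKM, from 2 reads, where the other 7 vehicle-treated mice were at 0. Any value above 0 in that mouse would have been flagged, so the rate of 1 in 20 does not apply to Nlrp3.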

How the results depend on the processing

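Under 29 alternatives each, Casp4, Nlrc4 and Aim2 were higher and Il18 and Nlrp6 lower in AIMD mice, and all 5 passed the threshold in the 27 that kept at least 14 mice in a limma fit. No result reversed. Leaving out each mouse in turn gave log2 differences of 1.31 to 1.44 for Casp4, 0.83 to 0.99 for Nlrc4, 0.62 to 0.73 for Aim2, -1.11 to -0.77 for Il18 and -0.48 to -0.35 for Nlrp6.

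Casp1 passed at 0.48 with quantile normalization, 0.44 with equal FPKM sums outside mitochondrial genes, 0.39 with the clock-gene score and 0.36 with that score centred within groups. Gsdmd passed at 0.34 with quantile normalization and 0.35 with the same equal sums. Nlrp3 was not tested in the main fit, and its exact permutation p of 0.00793 is unadjusted. With the marker balance as a covariate its log2 difference was 0.065 (exact permutation p = 0.0800, unadjusted). By limma without a filter the difference was 0.086, with a p adjusted over all genes of 0.0542, which is not on the scale of the exact p. The cause was not tested. Leaving out each mouse gave 0.26 to 0.40 for Casp1, 0.21 to 0.35 for Gsdmd, 0.38 to 0.61 for Il18bp, -0.48 to -0.098 for Pycard, 0.076 to 0.11 for Nlrp3 and -1.72 to -1.24 for the ratio of Il18 to Il18bp. The marker balance as a covariate left 2 calls in each of the lists of IL-18 and IL-1 family signalling and IL-18 responses, both with 4 otherwise; leaving out single mice gave 3 to 5 and 4 to 7. Over all genes, 3157 to 5039 passed under other settings, 3551 to 4638 with 1 mouse left out, and 4436 by limma voom on recovered reads, against 4315. Nlrp3 could not be fitted under filters on low values.

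The replicate number was tried as a block. Mice of the same number did not deviate together, with correlations of -0.35 to 0.43, and only mouse 7 was most like its own number. In the block fit vehicle mouse 8 is alone and drops out. Pycard then passed as lower at -0.48 (adjusted p = 0.0334) and Il18bp as higher at 0.61 (adjusted p = 0.0280), and 4647 genes passed.

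Nlrp3 had at most 3 reads in any library, and Il18bp as few as 10.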

Other observations

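Other called genes of the 5 lists, named here after their values had been seen, were as follows. Among sensors, Nlrp1b, which is activated by proteases, was 2.54 ± 0.375 FPKM (SD, n = 7) with AIMD and 1.49 ± 0.307 FPKM (SD, n = 8) with vehicle, a log2 difference of 0.61 (limma adjusted p = 0.000819). Dhx15, an RNA helicase that also senses viral RNA, rose by 0.73 (adjusted p = 0.000957), while Nlrx1 and Dhx9 did not pass, at 0.31 (adjusted p = 0.0955) and 0.29 (adjusted p = 0.0857). Naip5 and Naip6, the partners of Nlrc4 that bind flagellin, also did not pass, at 0.063 (adjusted p = 0.781) and 0.14 (adjusted p = 0.504). Of their 50-base windows 36.8% and 21.5% occur in other genes.

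Among regulators, the ubiquitin ligases Trim31 and Xiap rose by 0.66 (limma adjusted p = 0.000562) and 0.68 (adjusted p = 0.00646), Card6 by 0.61 (adjusted p = 0.0065) and the deubiquitinase subunit Brcc3 by 0.38 (adjusted p = 0.0267). The channel Panx1, which releases ATP, fell by 0.45 (adjusted p = 0.00718). Among executors, Casp8, the initiator caspase of death receptors, was 45.5 ± 6.97 FPKM (SD, n = 7) with AIMD and 24.7 ± 3.60 FPKM (SD, n = 8) with vehicle, a log2 difference of 0.87 (adjusted p = 7.67e-05) with no overlap. Dfna5, which encodes gasdermin E, a pore protein, rose by 1.26 (adjusted p = 0.000707), also with no overlap. Ripk3 rose by 0.82 (adjusted p = 0.00303) and Hmgb1, a nuclear protein released by dying cells, by 0.33 (adjusted p = 0.028), and Gsdmc3 fell by 1.04 (adjusted p = 0.000868). Hmgb1 and Gsdmc3 share 20.4% and 46.0% of their 50-base windows with other genes. Mlkl, the pore protein activated by Ripk3, was 11.2 ± 2.02 FPKM (SD, n = 7) and 11.1 ± 2.17 FPKM (SD, n = 8), with a log2 difference of 0.013 (adjusted p = 0.948). In signalling, Traf6 rose by 0.45 (adjusted p = 0.0194). Reg3b and Reg3g, antimicrobial lectins, varied widely between mice, at 1.07 to 730 FPKM and 1.18 to 130 FPKM with AIMD, and did not pass (adjusted p = 0.156 and 0.168).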
